A study of Mus musculus with 4 samples.

Results

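The 10 genes described here mark the cells that wrap blood vessels in the mouse: 5 smooth muscle genes of the contractile apparatus (Acta2, Myh11, Tagln, Cnn1 and Myl9) and 5 genes commonly used for pericytes (Rgs5, Kcnj8, Abcc9, Notch3 and Cspg4). They were followed by symbol through single-cell RNA sequencing of mouse sarcomas, and all 10 of them were present among 18220 genes in all, of which 17992 were measured in malignant and 16349 in non-malignant cells. The list was put together with earlier results of these data in view, Kcnj8 in the cells named Epithelial among them. Levels by cell type and the digoxin comparison in that type are therefore a description, and none of the tests on them counts as independent evidence.

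The sarcomas came from the hind limb of mice, with the 129/SvJae background and Trp53flox/flox given for every group, the controls included. Whether malignant cells, host cells or both carry these conditional alleles was not tested. The source of the recombinase, the age of the mice and any pooling of animals are not given in the sources used here. Vehicle mice received PBS and digoxin mice received 2 mg/kg digoxin (a cardiac glycoside that blocks the sodium pump), prepared in DMSO and diluted in PBS. Both were injected into the peritoneum every 24 h, tumours were taken after dose 4, and each group held 2 replicates. Each replicate is called a mouse here, although the labels do not name the animals.

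Pericytes sit on capillaries, inside the basement membrane they share with endothelial cells, and smooth muscle cells form rings around arterioles and larger vessels. Together they are called mural cells. Endothelial Pdgfb recruits them through the receptor Pdgfrb, and Notch3 takes part in their maturation. A contractile mural cell builds filaments from smooth muscle actin and smooth muscle myosin, whereas a capillary pericyte usually holds little of either and opens ATP-sensitive potassium channels that relax it. In tumours, vessel coverage by these cells is often incomplete, and actin-positive fibroblasts also carry part of the contractile set.

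The malignant table held 18963 cells with a median of 46799 to 57658 unique molecular identifiers (UMIs, 1 per captured RNA molecule) per mouse, and the non-malignant table held 12648 cells with 15837 to 16671. Levels are given as CPM, the UMIs of a gene scaled to a fixed total of UMIs in a cell and averaged over the cells of a mouse, and values are listed in the order vehicle 1, vehicle 2, digoxin 1, digoxin 2. The host of vehicle 2 stands apart in sex-linked genes: in the cells named Epithelial, Xist was at 893, 0.631, 1094 and 921 CPM, and in all non-malignant cells the Y-linked gene Ddx3y was at 1.77, 86.0, 1.72 and 2.14. Host cells here are the non-malignant cells. In malignant cells Xist ran from 0.462 to 16.9 CPM over the mice and Ddx3y from 43.1 to 49.3. In both genes the host cells of vehicle 1, digoxin 1 and digoxin 2 thus differed from the malignant cells. Whether the genotype given above belongs to malignant cells, host cells or both was not tested. Some results in host cells are also given without vehicle 2. The name Epithelial goes against the markers of the 347 cells that bear it (80, 98, 83 and 86 per mouse). The endothelial genes Cdh5 and Pecam1 averaged 953 and 919 CPM in the 297 cells of this type that are not mural-gene carriers (defined below), while the epithelial genes Epcam and Krt8 averaged 0.141 and 0.992. In the Fibroblast type, 10 of 10 fibroblast markers were detected and summed to 47818, 42344, 42665 and 49439 CPM. The Epithelial type keeps its label here as the authors' cell table does, by name only. Of the barcodes, 113 occurred in more than 1 library.

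By mean level per cell, 4 of the 5 pericyte genes were highest in the cells named Epithelial, the exception being Cspg4. Rgs5, a regulator that shortens G-protein signalling, averaged 731, 517, 502 and 582 CPM there, against 11.1, 13.8, 11.8 and 9.64 in malignant cells, the next population in order. Those levels did not overlap. Kcnj8, the pore subunit Kir6.1 of the vascular ATP-sensitive potassium channel, reached 123, 129, 33.4 and 59.8 CPM in the Epithelial type, against 4.44, 0, 3.89 and 4.04 in the Fibroblast type, the next in order. Abcc9, whose product SUR2 is the regulatory subunit of the same channel, stood at 83.1, 100.4, 63.8 and 65.4 CPM in the Epithelial type. Its level in the Fibroblast type, again next in order and not overlapping, was 3.12, 4.36, 13.2 and 13.1 CPM. Notch3, a receptor of the Notch family restricted largely to mural cells, was at 47.2, 44.0, 59.6 and 52.4 CPM in the Epithelial type and at 7.27, 8.56, 11.4 and 6.84 in the Fibroblast type. In malignant cells, which are deeper and far more numerous, Notch3 was at 6.18, 6.40, 5.49 and 5.26 CPM and a UMI of it was seen in 18.5% to 20.9% of cells by mouse.

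Cspg4, which encodes the proteoglycan NG2, followed another order. It averaged 28.0 ± 8.65 CPM (SD, n = 4 mice) in cells named Osteoclasts, 14.8 ± 8.33 in the Epithelial type, 13.5 ± 5.27 in the Fibroblast type and 11.8 ± 0.599 in malignant cells. Each of these overlapped its neighbour, while malignant cells did not overlap macrophages, the next in order at 4.31 ± 1.10. Per mouse, Osteoclasts held 36.9, 19.3, 22.1 and 34.0 CPM of Cspg4. A Cspg4 UMI was seen in 30.4% of the 263 Osteoclasts and in 0.518% of T cells, which should lack the gene, with median depths of 24868 and 7765 UMIs. After each cell was thinned to 5000 UMIs the shares were 7.60% and 0.198%.

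Free RNA in a droplet can put a UMI into a cell that does not express a gene, so the detection of the other pericyte genes was also set against T cells at 5000 UMIs per cell. Rgs5 was detected in 17.9% of Epithelial cells and 0.595% of T cells, Kcnj8 in 16.7% and 0.992%. Abcc9 was detected in 17.6% and Notch3 in 9.82% of Epithelial cells, and neither was seen in T cells. Before thinning, median depths were 19312 UMIs in the Epithelial type and 7765 in T cells. Other types also gave UMIs, with Rgs5 in 1.25% of macrophages and Kcnj8 in 1.43% of NK cells. Notch3 was seen in 3.87% of cells named Microglia (95% exact binomial interval 1.57% to 7.81%) and 2.78% of neutrophils (0.338% to 9.68%). Macrophages gave 0.0486% for Kcnj8 and 0.155% for Notch3, so the shares differed by type. Whether these UMIs are free RNA or expression was not tested. The Epithelial shares of all 4 genes stood above these values.

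The contractile genes were spread more widely. Acta2, smooth muscle alpha-actin, averaged 207 ± 140 CPM (SD, n = 4 mice) in the Epithelial type, 60.4 ± 48.5 in the Fibroblast type and 35.0 ± 17.9 in malignant cells, and each neighbour in this order overlapped. Tagln, which encodes the actin-binding protein transgelin, averaged 93.0 ± 82.5, 33.8 ± 40.8 and 10.0 ± 4.72 CPM in the same order, also with overlap. Myl9, a regulatory myosin light chain of smooth muscle, averaged 45.7 ± 33.1 CPM in the Epithelial type. Myh11, the smooth muscle myosin heavy chain and the most specific of these genes, averaged 19.1 ± 16.1 CPM there. Next in order were B cells, where 6 UMIs in 1 cell of digoxin 2 were the only ones (0, 0, 0 and 7.43 CPM). Cnn1, the actin-binding protein calponin, was sparse everywhere and averaged 1.52 ± 2.36 CPM in the Epithelial type. At 5000 UMIs per cell, Acta2 was detected in 9.52% of Epithelial, 19.7% of Fibroblast and 6.51% of malignant cells, against 0.595% of T cells. It was also detected in 9.72% of neutrophils (95% exact binomial interval 4.0% to 19.0%, counting error only) and in 2.43% of macrophages (2.14% to 2.74%), which should lack it as well. The Epithelial share was therefore not above the neutrophil share, and the malignant share lay within its interval. Median depths before thinning were 30159 UMIs in the Fibroblast type, 52867 in malignant cells, 11969 in neutrophils and 16412 in macrophages.

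**Figure D1:**
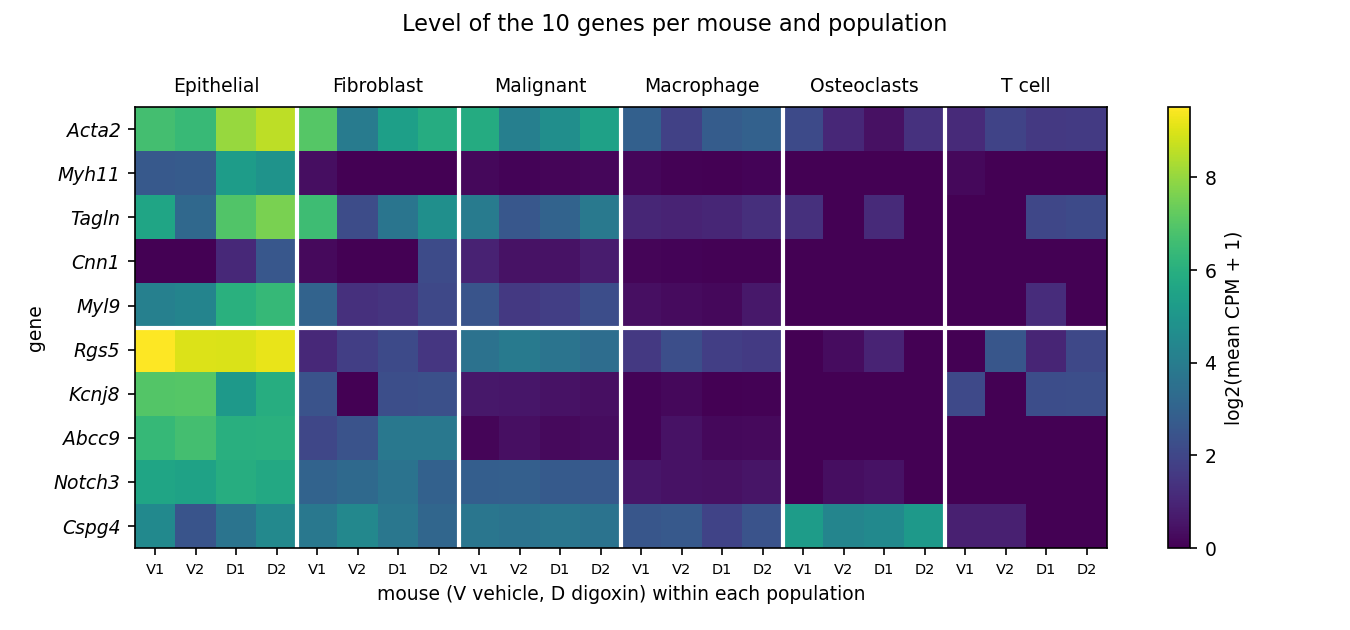
Heat map of log2(mean CPM + 1) for the 10 genes (rows) in 6 populations with 1 column per mouse. Rgs5, Kcnj8, Abcc9 and Notch3 are brightest in the 4 columns of the Epithelial type, while Acta2 also shows in the Fibroblast and malignant columns.

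Within the Epithelial type these levels came from few cells. A carrier was defined as a cell with a UMI of at least 3 of the 5 pericyte genes, and 50 of 347 cells met this (12, 12, 12 and 14 per mouse). The shares were 15.0%, 12.2%, 14.5% and 16.3%, or 13.6% ± 1.95 with vehicle and 15.4% ± 1.29 with digoxin (SD, n = 2). The groups overlapped and the difference of 1.75 percentage points had an exact two-sided permutation p of 0.667, where 2 mice against 2 cannot give less than 0.333. The direction depends on the definition. With 2 of the 5 genes required the difference was -3.99 points, and for the carriers with few endothelial markers described below it was -2.14 points, from shares of 10.0%, 6.12%, 6.02% and 5.81% that did not overlap (exact permutation p 0.333). Of the carriers, 45 of 50 held at least 3 of 7 further pericyte markers not used in the definition (Pdgfrb, Higd1b, Ndufa4l2, Cox4i2, Vtn, Steap4 and Mcam), against 3 of the 297 other cells. One carrier had a barcode shared between libraries. Carriers supplied 94.5% to 99.7% of the summed Rgs5 CPM of the type, 97.4% to 99.4% of Acta2, 68.0% to 84.4% of Kcnj8 and 61.8% to 86.3% of Abcc9, depending on the mouse. These spans were chosen by the definition itself for the pericyte genes, but Acta2 took no part in it.

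By a split made after their values were seen, the carriers fell into 2 kinds. In 24 of them (8, 6, 5 and 5 per mouse) 0 to 4 of 10 endothelial markers were detected, and in the other 26 (4, 6, 7 and 9) 8 to 10 were. No carrier lay between. In the cells with few endothelial markers Cdh5 was absent, Pecam1 was seen in 1 cell, and Pdgfrb and Des, the muscle intermediate filament desmin, were seen in 24 of 24. Those cells held a median of 12810.5 UMIs and are called low-endothelial carriers below, a name for the split alone, since markers of other cell types were also detected in them. The 26 others held a median of 43376 UMIs and Cdh5 in 26 of 26 at 952 CPM, the level of the non-carriers, and Scrublet, a doublet caller, marked 1 of them. Whether those 26 barcodes hold 1 cell or more was not tested.

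Low-endothelial carriers carried the genes at far higher levels than the type's mean. Rgs5 stood at 6664, 6896, 7132 and 5758 CPM in them, Abcc9 at 707, 788, 652 and 446, Notch3 at 428, 582, 853 and 510, and Cspg4 at 190, 50.1, 163 and 182. The 2 treatment groups overlapped for Rgs5, Notch3 and Cspg4, and for Abcc9 the digoxin mice were the 2 lowest. Of the 10 fibroblast markers 6 were detected in them, with sums of 4185, 4023, 3417 and 6718 CPM, among them Col1a1 at 1073 CPM, while Lum, Pdgfra, Dpt and Pi16 were at 0. The 5 endothelial markers detected summed to 379, 303, 176 and 292 CPM. In the 297 non-carriers Kcnj8 and Abcc9 were still detected in 20.2% and 25.9% of cells, whereas Notch3 was seen in 1.35% and Cspg4 in 0.337%. The channel subunit Kcnj8 averaged 22.6, 47.0, 9.22 and 16.3 CPM in these non-carriers, of which 14 (1, 2, 4 and 7 per mouse) had 4 or fewer endothelial markers and 12 had mast markers.

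Beyond the pericyte set, the genes with the greatest excess in carriers over the other Epithelial cells were Meg3, Higd1b, Ndufa4l2, Cox4i2, Vtn, Serpine2, Gucy1b1, Vstm4, Cygb and Gucy1a1. They rank first of 2275 genes at 50 CPM or more in the carriers of every mouse, a description with no test. Meg3, a long non-coding RNA, averaged 1608 ± 382 CPM (SD, n = 4 mice) in carriers and was not detected in the other cells. Ndufa4l2, a protein of the mitochondrial inner membrane, averaged 983 ± 112 against 1.34 CPM, and Vtn, the adhesion protein vitronectin, 218 ± 72.1 against 0. Higd1b, a gene commonly used to mark pericytes, stood at 1087 and 737 CPM in carriers with vehicle and at 343 and 342 with digoxin. The mix of the 2 kinds of carrier differs between these mice, and in the low-endothelial carriers alone Higd1b stood at 1619, 1336, 642 and 598 CPM. Gucy1a1 and Gucy1b1 encode the subunits of the nitric oxide receptor, soluble guanylate cyclase. They averaged 178 and 195 CPM in carriers and under 1 CPM in the others.

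**Figure D2:**
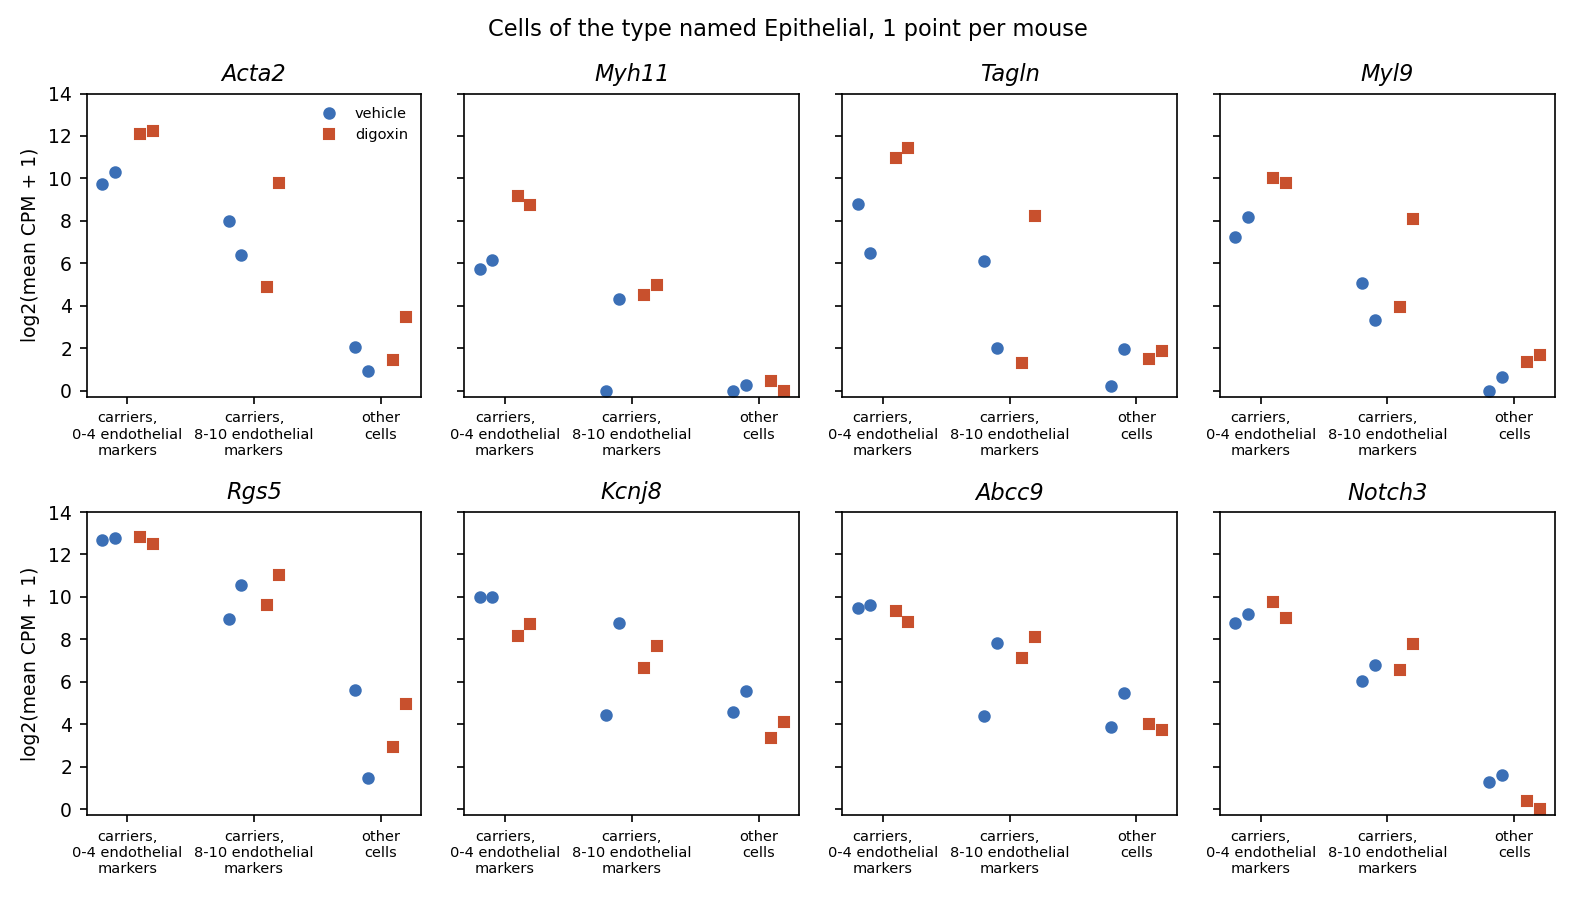
Levels of 8 of the genes, as log2(mean CPM + 1), in the 3 kinds of Epithelial cell, 1 point per mouse, for carriers with 0 to 4 endothelial markers, carriers with 8 to 10, and all other cells. Acta2 and Kcnj8 separate vehicle and digoxin mice in the carriers with 0 to 4 markers, and Rgs5 overlaps there.

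In the Epithelial type as a whole, the contractile genes were higher in digoxin mice and Kcnj8 was lower. Acta2 averaged 102, 83.9, 264 and 379 CPM, which is 92.7 ± 12.6 with vehicle and 321 ± 81.4 with digoxin (SD, n = 2), a ratio of 3.46. Myl9 stood at 16.8, 18.4, 65.6 and 81.9 CPM, 4.18 times as much with digoxin. Myh11, at 5.26, 5.67, 36.9 and 28.4 CPM, differed by 5.97 times but rested on 6, 13, 64 and 77 UMIs. For each of these 3 genes both digoxin mice lay above both vehicle mice. Tagln, at 47.5, 8.18, 122 and 195 CPM, was also apart, with vehicle mice that differed widely (27.8 ± 27.8 and 158 ± 51.5). Cnn1 gave 0, 0, 2 and 12 UMIs and was too low to test.

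Kcnj8 averaged 126 ± 3.78 CPM with vehicle and 46.6 ± 18.7 with digoxin (SD, n = 2), from 148, 252, 96 and 152 UMIs. It was 2.71 times as high with vehicle when each cell counted equally. As CPM of the summed UMIs it stood at 55.4, 117, 39.5 and 66.2, the groups overlapped, and the log2 difference was -0.65 in limma (adjusted p 0.998), -0.72 in edgeR (adjusted p 0.998) and -0.72 in DESeq2 (adjusted p 0.999). Its partner subunit Abcc9 averaged 91.7 ± 12.3 and 64.6 ± 1.13 CPM without overlap, and it too overlapped as CPM of summed UMIs (47.1, 82.8, 46.9 and 81.4). Rgs5 overlapped. Notch3 averaged 45.6 ± 2.29 and 56.0 ± 5.07 CPM without overlap, and Cspg4, at 21.8, 4.51, 11.6 and 21.4 CPM, overlapped.

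These levels were fitted with limma on log2(mean CPM + 1) of each mouse, with Benjamini-Hochberg adjustment over 10272 genes. Acta2 (log2 difference 1.76, SE 0.186, limma adjusted p 0.00371), Myl9 (2.00, SE 0.230, adjusted p 0.00508) and Myh11 (2.37, SE 0.339, adjusted p 0.0146) rose. Myh11, with 6 UMIs in vehicle 1, entered the test only through the digoxin mice, in which it is high, and its adjusted p was 0.0966 with no filter on low genes. Kcnj8 fell by 1.48 on the log2 scale (SE 0.246, adjusted p 0.0330 in limma). Tagln at 2.88 (SE 0.575, limma adjusted p 0.0707), Abcc9 at -0.49 (adjusted p 0.622) and Notch3 at 0.29 did not pass. Of the 9 members tested 4 passed, while 0.467% of all genes did (0.448% higher and 0.0195% lower, with 5.77% at an unadjusted p under 0.05). For groups that did not overlap, 4 of 4 contractile genes tested were above, as were 17.8% of all genes, and 2 of 5 pericyte genes were below, as were 16.3%. As the genes were listed with this contrast known, nothing is read from those shares. The median log2 difference was 2.18 over the contractile genes tested, -0.18 over the pericyte genes and 0.00305 over all genes.

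The calls rest on few cells and depend on the test. In digoxin 1, a single cell with 335 of the 443 Acta2 UMIs supplied 71.1% of the summed Acta2 CPM, and the cell richest in Acta2 supplied 62.0%, 39.7% and 33.8% in vehicle 1, vehicle 2 and digoxin 2. Without that cell in each mouse the means became 39.1, 51.1, 77.2 and 254 CPM, still apart for Acta2, and none of the members passed. The log2 difference was then 1.63 for Acta2, 1.56 for Myh11, 0.91 for Myl9 and -1.39 for Kcnj8 (limma adjusted p 0.311, 0.441, 0.95 and 0.0668). On summed UMIs, in which deep cells weigh more, the edgeR quasi-likelihood test called 0 of the 9 members, and DESeq2 called Myl9 (log2 difference 2.73, DESeq2 adjusted p 3.24e-06) and Myh11 (2.87, adjusted p 0.00191). With 1 mouse left out of limma, a lone mouse in an arm is assumed to vary like the other group. The count of members was then 5 without vehicle 1 and 6 without vehicle 2, where 341 and 249 genes passed in all, and 1 without digoxin 1 and 0 without digoxin 2, where 10 and 3 genes passed, against 48 with every mouse.

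Mast cell markers also moved with treatment in the Epithelial type. All 7 of 7 listed mast markers were detected, and they summed to 59.4 and 266 CPM with vehicle and to 4842 and 5410 CPM with digoxin. Cells with mast markers numbered 0, 1, 5 and 6, and none of those 12 was a carrier. In the low-endothelial carriers 2 of the 7 were detected, with a sum of 0, 31.9, 0 and 0 CPM, and Cpa3, Mcpt4, Cma1, Fcer1a and Ms4a2 were at 0. Without the mast-marker cells the log2 difference was 1.85 for Acta2 and -1.39 for Kcnj8, and Acta2, Myh11 and Myl9 passed when genes were filtered again (3 of 10219 genes in all). Over the genes kept with all cells, 0 of 10272 passed. Macrophage markers (8 of 8 detected) summed to 375, 763, 946 and 1097 CPM in the Epithelial type. Both digoxin mice were above, but the vehicle mice differed widely and this sum was not tested. In the low-endothelial carriers they summed to 96.7, 112, 2614 and 323 CPM. T and NK cell markers (5 of 8 detected, Cd3e, Cd3d and Klrb1c at 0) summed to 9.79, 1122, 35.2 and 95.9 CPM in the low-endothelial carriers. The part of the macrophage and lymphocyte markers in the result was not tested.

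Within the low-endothelial carriers the same directions held mouse by mouse. Acta2 averaged 862, 1274, 4311 and 4793 CPM, or 1068 ± 291 with vehicle and 4552 ± 341 with digoxin (SD, n = 2). Myl9 went from 218 ± 94.0 to 968 ± 111 CPM and Myh11 from 61.8 ± 12.9 to 506 ± 101. Tagln stood at 440, 88.5, 1994 and 2767 CPM, and Cnn1 at 0, 0, 18.6 and 85.5, from 3 cells that were all in digoxin mice. Kcnj8 went the other way, from 1018 ± 20.9 to 352 ± 94.1 CPM (1032, 1003, 286 and 419 by mouse). Rgs5 was 6780 ± 165 and 6445 ± 971 CPM. The groups did not overlap for 7 of the 10 members, with the 5 contractile genes above and Kcnj8 and Abcc9 below. Cnn1, with 14 UMIs, met the minimum used next only through the digoxin mice, so its side was fixed in advance. Without its highest cell, digoxin 1 stood at 0 CPM of Cnn1. Of the 5789 genes with at least 10 UMIs in these cells, 17.3% lay above and 16.8% below without overlap. No test was run on 24 cells chosen by their genes. Single cells weigh heavily in these means: the highest cell of digoxin 1 supplied 72.1% of the summed Acta2 CPM, 78.6% of Tagln and 79.8% of Myl9, and that of digoxin 2 supplied 89.2% of Tagln. Without the highest cell of each mouse for each gene, Acta2 stood at 265, 876, 1503 and 3240 CPM, Myl9 at 106, 158, 264 and 627, and Tagln at 32.7, 69.5, 533 and 375. Kcnj8 then stood at 926, 904, 213 and 212 CPM. The groups remained apart for these 4 genes and differed by less for the contractile ones in CPM. The type's mean alone cannot tell fewer cells of a kind from less RNA in each.

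In the carriers with 8 to 10 endothelial markers, the groups overlapped for both genes. Acta2 stood at 256, 83.2, 28.1 and 876 CPM and Kcnj8 at 20.8, 428, 98.0 and 208. In non-carriers the 2 lowest mice for Kcnj8 were again those on digoxin, at the levels given above, while Acta2 stood at 3.13, 0.893, 1.71 and 9.93 CPM and overlapped.

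Cell by cell, the low-endothelial carriers of digoxin mice ranged in Acta2 from 77.8 to 15541 CPM with a median of 2406, and 0 of 10 were without a UMI. Those of vehicle mice ranged from 0 to 5040 CPM with a median of 157, and 5 of 14 were without one. Both groups thus held high and low cells and their ranges overlapped. For Kcnj8 the lowest, median and highest cells were at 148, 1033 and 1776 CPM with vehicle and at 0, 287 and 1245 CPM with digoxin. Rgs5 medians were 6021 and 6101 CPM. Cells of a mouse share a library and are not replicates.

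Among the 24 low-endothelial carriers Acta2 and Tagln varied together (Pearson 0.73, Spearman 0.78 on log2(CPM + 1)), while Acta2 with Kcnj8 gave -0.45 and -0.58. The latter pool 14 vehicle and 10 digoxin cells whose means differ in both genes. Within treatment Acta2 with Kcnj8 gave -0.11 and -0.37 over the 14 vehicle cells and -0.61 and -0.55 over the 10 digoxin cells. Over all 50 carriers the relation of Acta2 with Kcnj8 was near 0 (0.0145 and -0.0145), and Kcnj8 with Abcc9 gave 0.78 and 0.72. The latter pool both kinds of carrier, which differ in the level of both genes. Within the 24 low-endothelial carriers Kcnj8 with Abcc9 gave 0.82 and 0.39, with 0.19 and 0.27 over the vehicle cells and 0.86 and 0.35 over the digoxin cells. These are descriptions over cells that share libraries and differ in depth. The 14 low-endothelial carriers with at least 3 of the 5 contractile genes had median levels of 344 CPM Kcnj8, 476 CPM Abcc9 and 5017 CPM Rgs5. The 10 with fewer had 1159, 851 and 6997 CPM. Treatment was unevenly split between them, at 2, 4, 4 and 4 cells per mouse against 6, 2, 1 and 1. Within vehicle 2 the order was the reverse for Kcnj8 and Rgs5, with means of 1093 and 8246 CPM in the 4 cells with at least 3 contractile genes and 821 and 4197 in the 2 with fewer. Cells of the Epithelial type with at least 3 contractile genes made up 5.00%, 5.10%, 7.23% and 9.30% (exact two-sided permutation p 0.333, the smallest possible).

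**Figure D3:**
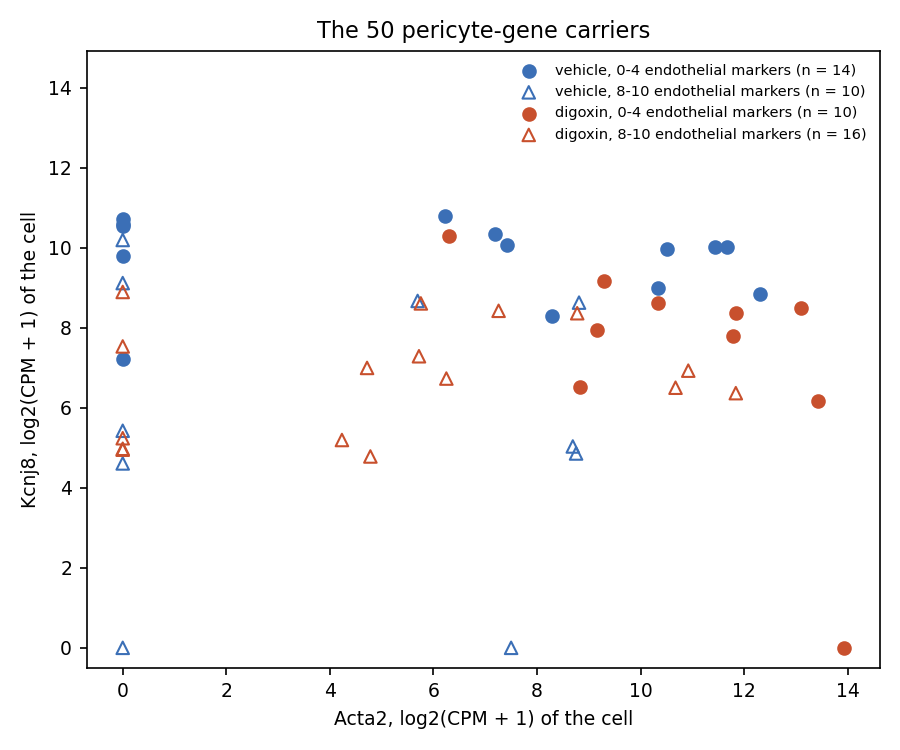
Each of the 50 carriers by its Acta2 (x axis) and Kcnj8 (y axis) level, both as log2(CPM + 1), with colour for treatment and symbol for the number of endothelial markers. In cells with 0 to 4 markers the vehicle cells (14) lie mostly high in Kcnj8 and the digoxin cells (10) mostly high in Acta2, with ranges that overlap.

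The promoters of a member that rose and of the one that fell are shown. Of the members with a promoter in the reference, Myl9 alone held a CArG box in the window searched. This box is the motif bound by serum response factor in many smooth muscle genes. The box was searched as CC, then 6 bases of A or T, then GG, on both strands. The window was the 250 bases before the start given in the promoter reference. Inside the annotated gene lay 212 of these bases for Acta2, 250 for Abcc9, 56 for Myl9, 32 for Cnn1 and 6 for Notch3. Sequence upstream of the gene was therefore mostly left out for Acta2 and wholly for Abcc9. The box was found in 1 of 8 members matched (Tagln and Myh11 were not matched) and in 482 of 32851 promoters (1.47%). Myl9 lies at chr2:156775408-156781657 on the plus strand of GRCm38.p6 (mm10), and the 194 bases shown end where its annotated gene begins. Kcnj8 lies at chr6:142564837-142571614 on the minus strand, 16247 bases from Abcc9 with no gene between, and the 250 bases before it hold no box. Sequences are from RefSeq, 5′ to 3′ on the gene's strand, with the box in capitals. The box begins 161 bases before the end of the searched window, which runs 56 bases into the annotated Myl9 gene.
Myl9, chr2:156775214-156775407: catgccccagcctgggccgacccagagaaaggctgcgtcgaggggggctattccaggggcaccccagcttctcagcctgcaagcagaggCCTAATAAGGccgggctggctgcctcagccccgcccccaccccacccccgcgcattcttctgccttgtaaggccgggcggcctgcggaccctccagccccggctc
Kcnj8, chr6:142571615-142571864: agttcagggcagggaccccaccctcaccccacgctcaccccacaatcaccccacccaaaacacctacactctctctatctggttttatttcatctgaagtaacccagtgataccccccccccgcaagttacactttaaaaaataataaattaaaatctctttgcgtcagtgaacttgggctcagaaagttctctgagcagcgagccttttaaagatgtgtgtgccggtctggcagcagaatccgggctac
A match is a string of letters and not evidence of binding, and no match says only that the letters are not in this window.

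In malignant cells the contractile genes were present at lower levels and unevenly. Acta2 averaged 56.4, 16.2, 25.1 and 42.3 CPM, Tagln 14.7, 4.93, 7.18 and 13.3, and Myl9 4.53, 1.95, 2.40 and 3.72. For all 3 genes vehicle 1 was highest and vehicle 2 lowest, with the digoxin mice between them, so the groups overlapped. Myh11 stayed between 0.063 and 0.142 CPM and Cnn1 between 0.375 and 0.891. Acta2 was detected in 30.4%, 11.8%, 19.0% and 25.4% of malignant cells.

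Acta2 was high in a minority of malignant cells. Those with 10 or more Acta2 UMIs numbered 922 (4.86%), and made up 7.81%, 2.12%, 4.63% and 6.09% of the cells by mouse. With every cell thinned to 5000 UMIs, 537 cells had 2 or more Acta2 UMIs. Of these, 30.5% held Tagln, 14.2% Myl9 and 4.66% Cnn1, against 1.56%, 0.678% and 0.107% of 17703 cells with no Acta2. Myh11 was seen in 0.559% and 0.0282%, Kcnj8 in 0.559% and 0.136%, and Rgs5 in 3.72% and 3.32%. Tagln, Myl9 and Cnn1 thus accompanied Acta2 in malignant cells, as a description over cells that share libraries. At full depth 240 malignant cells (1.27%) had a UMI of at least 3 pericyte genes. Those were deep, at a median of 73051.5 UMIs, and Scrublet marked 10.8% of them against 6.84% of all malignant cells.

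With digoxin against vehicle, none of the 10 members passed in malignant cells and neither did any of 17138 genes (0% in limma, with 585 or 3.41% at an unadjusted p under 0.05, and 0 in edgeR). DESeq2 on summed UMIs called 44 genes and 0 members. The 2 members without overlap were pericyte genes at low levels. Kcnj8, at 0.521, 0.504, 0.397 and 0.311 CPM, differed by -0.16 on the log2(CPM + 1) scale, which understates the change of a gene this low (-0.44 with a pseudocount of 0.1, and -0.99 in edgeR and -0.98 in DESeq2 on summed UMIs, adjusted p 0.984 and 1.0). Notch3, at the levels given above, differed by -0.19 (SE 0.104). The limma adjusted p was 1.0 for both. Over all genes 12.8% lay above and 16.5% below without overlap.

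In the Fibroblast type (203 cells, 78, 31, 45 and 49 by mouse) the contractile genes followed the same mice as in malignant cells. Acta2 averaged 128, 14.7, 40.4 and 58.6 CPM and Tagln 93.5, 3.61, 12.1 and 25.9, with vehicle 1 highest and vehicle 2 lowest for both. Myl9 stood at 7.27, 1.47, 1.69 and 3.15 CPM in the same order of mice. Myh11 was not detected in 3 of the 4 mice. Cells with at least 3 contractile genes numbered 8, 1, 0 and 2, which is 10.3%, 3.23%, 0% and 4.08% (exact two-sided permutation p 0.667), and 0 of 45 cells allows a share of up to 6.67%. Median depth by mouse was 36748.5, 18866, 31632 and 28822 UMIs, and with cells thinned to 5000 UMIs the shares were 1.28%, 0%, 0% and 0%. No Fibroblast cell had 3 pericyte genes, and 0 of 203 allows up to 1.48%. The mice are too few to set malignant against Fibroblast levels in a correlation. In macrophages, which should lack it, Acta2 was also lowest in vehicle 2, at 6.49, 2.61, 5.85 and 6.81 CPM, with digoxin 2 highest. Whether free RNA has a part in the order of the mice was not tested.

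None of the 5 members tested in the Fibroblast type passed, nor did any of 9292 genes (0% in limma, with 276 or 2.97% at an unadjusted p under 0.05, and 0 in edgeR). DESeq2 on summed UMIs called 1 gene and 0 members. Acta2 differed by 0.14 and Tagln by -0.15 on the log2 scale. The vehicle mice lay on either side of the digoxin mice. With 1 vehicle mouse left, assumed to vary like the digoxin pair, both genes passed as higher without vehicle 1, where 462 of 9847 genes passed, and Tagln passed as lower without vehicle 2, where 18 of 9870 did. Abcc9 had 4, 3, 14 and 19 UMIs and entered the test only through the digoxin mice, in which it is high. Its difference of 1.59 on the log2 scale (SE 0.528, adjusted p 0.999 in limma) did not pass. Both digoxin mice lay above both vehicle mice, as did 10.1% of all genes, but the filter favoured that side and nothing is read from it. Cspg4, at 13.2, 20.6, 12.7 and 7.77 CPM, lay lower in both digoxin mice, as did 19.4% of all genes, and its log2 difference of -0.68 (SE 0.430, adjusted p 0.999 in limma) did not pass. The direction of Abcc9 in the Epithelial type was the opposite, but the test of the difference, 2.08 (p 0.000217 before adjustment), had a limma adjusted p of 0.346, and 0 of 11185 genes passed it (469 at an unadjusted p under 0.05).

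**Figure D4:**
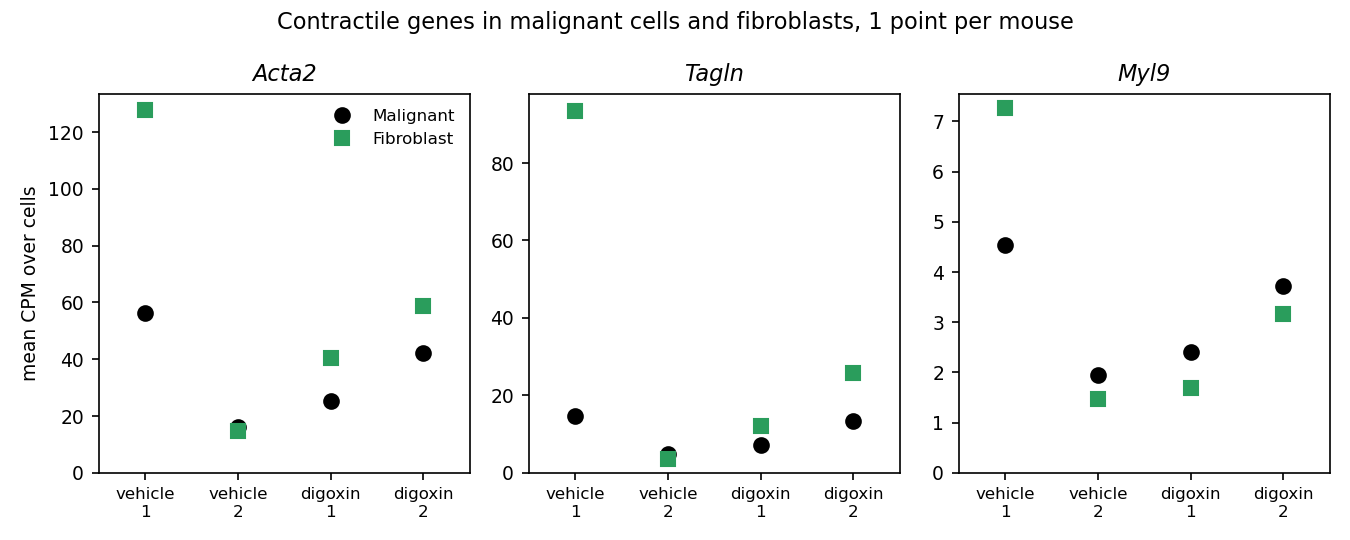
Mean CPM of Acta2, Tagln and Myl9 in malignant cells and in the Fibroblast type, 1 point per mouse. Vehicle 1 is the highest and vehicle 2 the lowest point for each gene in both populations, with the digoxin mice between them.

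Over all non-malignant cells together, Kcnj8 averaged 3.75, 4.31, 1.16 and 2.07 CPM and Myh11 0.257, 0.207, 0.916 and 0.820. Of 14879 genes 0 passed (0% in limma, with 581 or 3.9% at an unadjusted p under 0.05, and 0 in edgeR), with an adjusted p of 0.975 in limma for Kcnj8 at -0.96 on the log2 scale. DESeq2 on summed UMIs called 30 genes and 0 members. Acta2, Myh11 and Myl9 were above without overlap (12.4% of all genes) and Rgs5, Kcnj8, Abcc9 and Cspg4 below (20.6%). When the digoxin effect was compared between malignant and non-malignant cells, 0 of 16091 genes passed (limma, with 805 at an unadjusted p under 0.05, and 0 in edgeR). Myh11 had the smallest p among the members, with a difference of 0.59 (p 9.24e-05 before adjustment, limma adjusted p 0.248). Its level in malignant cells was very low, and the log2(CPM + 1) scale compresses the spread of such a gene. With a pseudocount of 0.1 the Myh11 difference was 1.49 (p 0.0011 before adjustment, limma adjusted p 0.964). In edgeR it was 1.76 (p 0.0189 before adjustment, edgeR adjusted p 0.899), and Acta2 had the smallest p there.

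Other genes of mural cells did not pass the threshold. Of 20 further pericyte genes 19 were tested in the Epithelial type, of 20 further contractile genes 14, and of 22 genes of endothelial to mural signalling 19, and none passed (limma), with 2, 4 and 6 at an unadjusted p under 0.05 (5.77% of all genes). Their median log2 differences were -0.09, 0.17 and -0.04. Without overlap, 2 further pericyte genes were above and 4 below, 6 contractile genes above and 2 below, and 6 signalling genes above and 5 below, where all genes gave 17.8% above and 16.3% below. None of the 3 lists had a member past the threshold in malignant, all non-malignant or Fibroblast cells either.

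The 3 genes of each list with the highest level in carriers were followed by mouse. Pdgfrb, the receptor through which mural cells are recruited, was at 71.4, 59.8, 51.1 and 68.5 CPM in the Epithelial type, with a log2 difference of -0.14 (SE 0.208). Ndufa4l2 was at 155, 134, 146 and 135 CPM, and Ebf1, a transcription factor of several mesenchymal lineages, at 265, 236, 224 and 277. Tpm1, the actin-filament protein tropomyosin, was at 240, 206, 296 and 366 CPM, differing by 0.56 on the log2 scale (SE 0.147, adjusted p 0.233 in limma), and both digoxin mice lay above. Cald1, the actin-binding protein caldesmon, was at 383, 306, 387 and 423 CPM. Myl6, a non-muscle and smooth muscle myosin light chain, differed by -0.09 on the log2 scale, with both vehicle mice slightly above. Gm13889 overlapped between groups, as did Ednrb, a receptor for endothelins, and the growth factor Tgfb1.

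Across 32 points (8 populations in 4 mice), the genes whose log2 level ran closest to Rgs5 among 9104 considered were Caskin2 (Pearson 0.984), Dcbld1 (0.974) and Shank3 (0.968). For Acta2 they were Adamts9 (0.937), Fam13c (0.928) and Eml1 (0.925). Caskin2 averaged 52.5 CPM in the Epithelial type and 4.50 in malignant cells, and Adamts9 209 and 35.0. Points of a mouse share a library, and these values are a description.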

How the data were processed

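The genes and lists, and the rule for naming genes, were chosen with earlier results of these data known. All 10 members are named, with the 3 genes of each further list highest in carriers, the 10 genes of greatest carrier excess and the 3 nearest in pattern to Rgs5 and to Acta2. One further allele of the genotype label is not reported here.

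Cells were dissociated enzymatically and captured with a droplet kit for RNA 3′ ends, per the labels' protocols. Cell Ranger 3.0.2, Seurat 3.0.2 and mm10 are named in the submitters' processing notes. The deposited gene values are the natural log of 1 plus UMIs per 10000. The UMI count of each cell, in the cell tables deposited by the authors, turned 100% of them back into whole UMIs within 0.01. Cell types are the authors' own. Cells named with number 3 are vehicle replicate 2 in the deposited tables.

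CPM was averaged per mouse and tested with limma 3.58.1 on log2(mean CPM + 1), with genes kept by the filterByExpr function of edgeR 4.0.16 and Benjamini-Hochberg adjustment at 0.05. The script was tested on simulated data. Shares were compared by exact permutation. The labels number the replicates without naming their animals. P-values measure the spread between these samples, which for host cells includes the difference between the vehicle hosts given above. Upper limits for a count of 0 use 3 counts and cover counting error only. Scrublet marked 1381 of 31611 cells (4.37%), which were kept. Alternatives were edgeR and DESeq2 1.42.0 on summed UMIs, CPM of summed UMIs, a pseudocount of 0.1, no gene filter, a replicate block, other carrier rules, and leaving out mice or cells.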

Additional observations from a re-analysis of the deposited data

Results flagged for a closer look

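Both of these concern a member whose digoxin mice lay on opposite sides of the vehicle mice in 2 populations. Abcc9 was higher with digoxin in the Fibroblast type (log2 difference 1.59) and lower in the Epithelial type (-0.49), a gap of 2.08 (p 0.000217 before adjustment, limma adjusted p 0.346), which did not pass. In the Fibroblast type Abcc9 had few UMIs and entered the test only through the digoxin mice, so its side there was favoured in advance. With CPM of summed UMIs its log2 difference in the Epithelial type was -0.016 (limma adjusted p 0.999), and the groups overlapped. Notch3 was higher in the Epithelial type (0.29) and lower in malignant cells (-0.19), a gap of 0.48 that was not tested.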

How the results depend on the processing

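The count of members passing in the Epithelial type, 4 as reported, was 0 with edgeR on summed UMIs, 2 with DESeq2 (15 genes in all), 0 with CPM of summed UMIs, 2 with no gene filter (6 genes, Myh11 and Kcnj8 lost) and 0 without carriers (3 members tested). As reported, 48 genes passed in all. It was 3 with a pseudocount of 0.1, without Scrublet-marked cells, without cells over 20% mitochondrial UMIs or without mast-marker cells (18, 27, 26 and 3 genes in all). Leaving out a mouse gave 0 to 6. Alternatives chosen after seeing the data gave 0 without mast-marker cells when the genes kept with all cells were tested, 0 without the cell richest in Acta2 in each mouse, and 4 without carriers with 5 or more endothelial markers. Acta2, Myh11, Tagln and Myl9 kept their direction in 16 of 16 alternatives and passed in 10, 9, 3 and 10, and Kcnj8 in 17 of 17 (-1.89 to -0.65) and passed in 4. Rgs5 was -0.185 as reported and -0.435 without vehicle 2. It turned positive with edgeR (0.50), DESeq2 (0.51), CPM of summed UMIs (0.44), without vehicle 1 (0.0654) and without carriers (0.41). Cspg4 ran from -0.44 without vehicle 2 to 1.61 without vehicle 1, and Tagln from 1.68 without vehicle 2 to 4.08 without vehicle 1.

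Replicate numbers did not pair the mice: same-numbered mice correlated at -0.36 in malignant, 0.0124 in non-malignant, -0.06 in Epithelial and -0.05 in Fibroblast cells. With the replicate block 5 members passed in the Epithelial type, the fifth being Tagln, where 85 of 10272 genes passed in all, and with the crossed block 0 passed in malignant cells. Malignant, non-malignant and interaction counts of members were 0 under every alternative run. Counts over all genes were not always 0, with 44 in malignant and 30 in non-malignant cells in DESeq2.

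The Epithelial carrier share, 1.75 points higher with digoxin, was -3.99 with 2 of 5 members required and -2.14 with carriers of under 5 endothelial markers (added later), and 0.368 to 3.12 without a mouse. The Fibroblast contractile share, -4.70 points, was -0.64 with cells thinned to 5000 UMIs, 0 with 4 of 5 required and -8.22 to -1.18 without a mouse. The Fibroblast count ranged from 0 to 2 without a mouse. In host cells some mice gave under 20 UMIs of a member, as for Cnn1, Myh11 and Abcc9, among others. Vehicle 2 gave 15 UMIs of Tagln and 9 of Cspg4 in the Epithelial type, and 13 of Acta2 and 5 of Tagln in the Fibroblast type.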
